A study of Mus musculus with 4 samples.

Results

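The semaphorins, their plexin and neuropilin receptors and the Plxdc genes were examined in mouse cortical neural stem cells. Members were the entries of the deposited gene table whose symbol is that of a class 3 to 7 semaphorin, a plexin, Nrp1, Nrp2, Plxdc1 or Plxdc2, and 33 of 26815 entries met this rule. They comprised 20 semaphorins, 9 plexins, 2 neuropilins and 2 Plxdc genes, and each had 1 entry. The authors tested 26 of them and left 7 untested. The cells came from CD-1 embryos at E14.5, were bought as cortical stem cells and were grown as an adherent layer on polyornithine and laminin with EGF and bFGF. Both groups were transduced with lentivirus and selected in puromycin at 0.5 µg/mL. The control group carried the scrambled shRNA SHC002 and the other group the pLKO.1_sh_ex15 shRNA against Foxp1, with 2 libraries of poly(A) RNA per group taken from different passages. Each group had a single shRNA, so the loss of Foxp1 and any other effect of that shRNA cannot be told apart. The table gives 1 comparison between pooled conditions coded q1 and q2, which no label or header ties to an shRNA, so every direction below is q2 relative to q1. Values per library were not used here, read depth is unknown, and no spread between libraries can be given.

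Semaphorins are guidance proteins that are secreted (class 3) or held at the membrane (classes 4 to 7). Plexins are their signalling receptors and carry a GTPase-activating domain inside the cell that switches off small GTPases of the Ras family, which leads to loss of adhesion and a rebuilt actin skeleton. Neuropilins are co-receptors without a signalling domain of their own, which most class 3 semaphorins need in order to reach an A or D plexin. In the developing cortex the system steers axons and migrating neurons, and it also acts on vessels and on cells of the oligodendrocyte lineage.

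By the authors' deposited table Foxp1, the targeted forkhead factor, had a log2 fold change of -2.03 (Cuffdiff q = 0.00162). Log2 fold changes, statistics and Cuffdiff q-values given below are those of the authors' deposited table unless a correction is named. An entry was called where the Cuffdiff q was under 0.05. Of 15315 tested entries 7.63% were called, 4.24% higher and 3.39% lower in q2. Among the neural stem cell markers 11 of 12 were tested, with Nes and Sox1 called higher and Fabp7 and Hes5 called lower in q2.

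In all, 5 members were called, all of them higher in q2: Plxnd1, Sema4d, Sema3c, Plxnb3 and Nrp2. That is 5 of 26 tested members, beside the 4.24% of all tested entries called higher. Of 12159 tested single-symbol genes, 615 were called higher and 474 lower. No member was called lower by Cuffdiff, beside 3.39% of all tested entries. An unadjusted p under 0.05 was found for 6 members with a positive fold change and for 3 with a negative one (Plxnb1, Plxdc2 and Sema4b), beside 1449 and 1492 of the 15315 tested entries. The called members were a secreted ligand, a membrane ligand, a co-receptor and 2 plexins, and their fold changes ran from 1.62 to 3.94 by the authors' deposited table. The other 21 tested members lay between -0.64 and 0.50 on the log2 scale, with 12 above and 9 below 0 and a median of 0.03. Over all 26 tested members the median log2 fold change was 0.17 with 17 above 0 (65.4%), while over all tested single-symbol genes it was -0.04 with 46.4% above 0. With a trend of fold change with transcript GC content removed, the median of the members was 0.10. Sema4g, Sema6c and Sema7a then moved from above to below 0, so fewer members were positive. RNA came from whole cultures, so a change in the share of cells that express a gene and a change in its RNA per cell cannot be told apart.

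**Figure D1:**
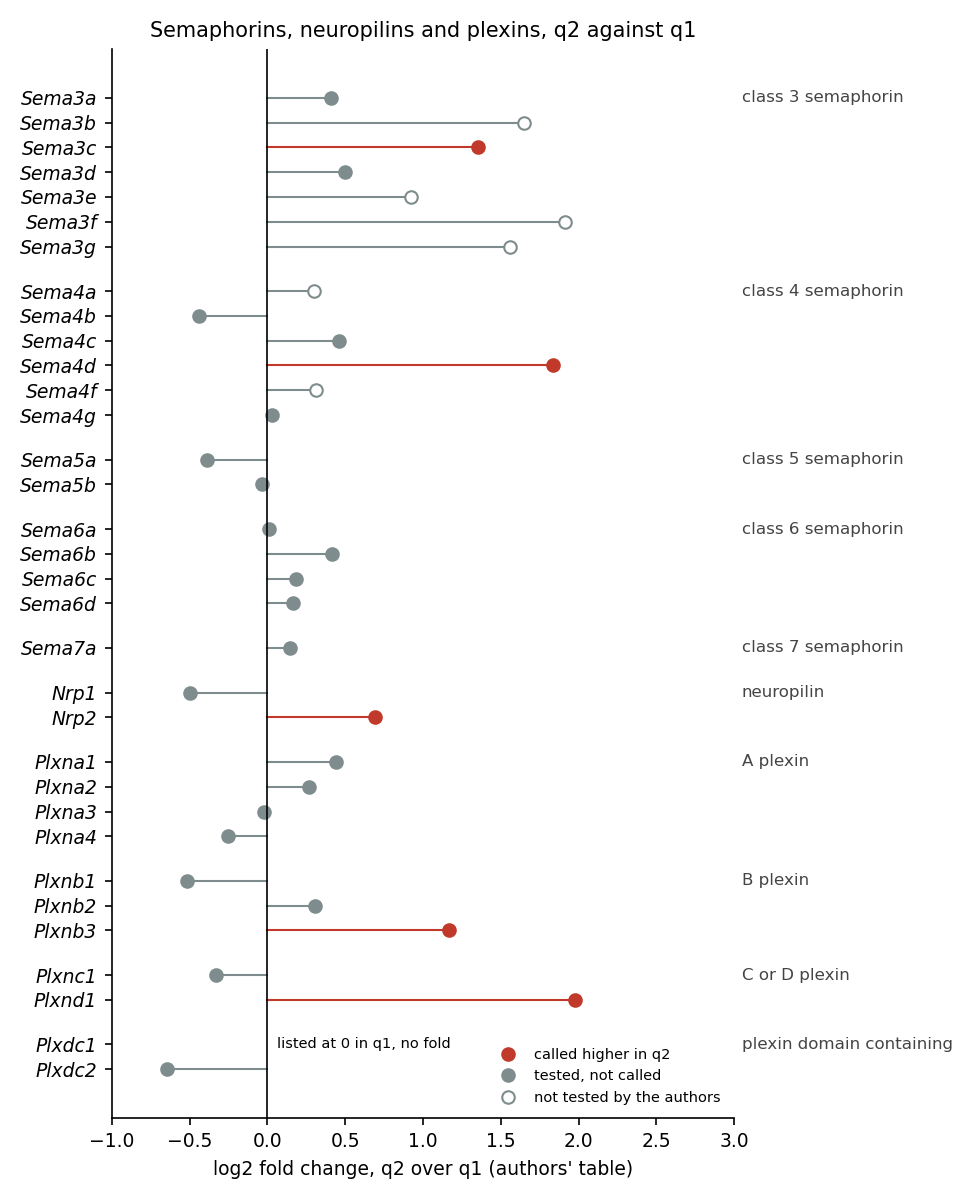
Log2 fold change, q2 over q1, from the authors' deposited table, along the x axis, with the members by class along the y axis. Filled red points are called higher, filled grey points tested and not called, open points not tested; the called members reach from Nrp2 at 0.69 to Plxnd1 at 1.98, and Plxdc1 has no finite value.

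Of the 7 secreted class 3 semaphorins 3 were tested, all with a fold change above 0, and 1 was called. Sema3c, a ligand that signals through neuropilins with plexin A or D (GRCm38 chromosome 5, 17574816 to 17730267, plus strand), was 2.55-fold higher in q2 by the authors' deposited table. Its log2 fold change of 1.35 had a statistic of 3.38 and a Cuffdiff q of 0.00162, and the error implied by that statistic was 0.40. Sema3d and Sema3a, a classical repellent of axons, stood at 0.50 (q = 0.379) and 0.41 (q = 0.314) by the authors' deposited table and were not called by Cuffdiff. The authors did not test Sema3b, Sema3e, Sema3f and Sema3g, which their deposited table lists at 1.65, 0.92, 1.92 and 1.56. These 4 values carry no p, and the levels behind them were not used here. Whether they rest on few reads is unknown, so they give no direction for the class. Sema4a and Sema4f were untested as well, at 0.30 and 0.32 by the authors' deposited table. All 6 untested semaphorins were thus above 0, while of 3149 untested single-symbol genes with a finite fold change other than 0, 1768 were above 0. Adding these 6 to the tested members gave a median of 0.30, which carries the same limit.

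Sema3d, Sema3a, Sema3e and Sema3c lie in this order along chromosome 5, with gaps of 0.81, 0.42 and 3.32 Mb. Sema3b and Sema3f lie 0.072 Mb apart on chromosome 9. In both places every listed fold change was above 0, and Sema3c was the called gene among the 3 tested.

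Among the membrane semaphorins Sema4d, a ligand of B plexins that is also shed from the cell surface and is known in immune cells and oligodendrocytes, had the highest value (chromosome 13, 51701248 to 51793747, minus strand). It was 3.57-fold higher in q2 by the authors' deposited table, with a log2 fold change of 1.84, a statistic of 3.60, an implied error of 0.51 and a Cuffdiff q of 0.00162. Its implied error was the largest of the called members. The other class 4 members with a test were not called and went both ways: Sema4c, a ligand of Plxnb2, at 0.46 (q = 0.31), Sema4g at 0.03 (q = 0.965) and Sema4b at -0.44 (q = 0.259), all by the authors' deposited table. Cuffdiff called no semaphorin of classes 5 to 7, and an unadjusted p under 0.05 was found for 0 of the 7, beside 19.2% of all tested entries. Sema5a and Sema5b, which carry thrombospondin repeats, were at -0.39 and -0.03 by the authors' deposited table. The class 6 genes, which encode transmembrane ligands of A plexins, lay between 0.01 (Sema6a) and 0.42 (Sema6b), with Sema6c at 0.18 and Sema6d at 0.17 by the authors' deposited table. Sema7a, the membrane ligand anchored by a lipid, was at 0.15 (q = 0.863) by the authors' deposited table.

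The neuropilins had opposite signs. Nrp2, which binds Sema3f and Sema3c and also VEGF-C (chromosome 1, 62703317 to 62818692, plus strand), was 1.62-fold higher in q2 by the authors' deposited table, with a log2 fold change of 0.69, a statistic of 2.11, an implied error of 0.33 and a Cuffdiff q of 0.0361. This is the call nearest the threshold: it was lost at a q under 0.01 and with normal p-values of the statistic (Benjamini-Hochberg q = 0.421). Another entry, 4930487H11Rik, overlaps its locus. Nrp1, the main co-receptor of Sema3a and a receptor of VEGF-A, was at -0.49 (Cuffdiff q = 0.67) by the authors' deposited table. The statistic of Nrp1 was only -0.02, while the median size of the statistic over 2308 tested entries with a log2 fold change of 0.4 to 0.6 in size was 1.24. Its Cuffdiff p was 0.342, though only 7 of 1271 tested entries with a statistic under 0.1 in size had a p under 0.5, Nrp1 among them. The implied error of 23.3 on the log2 scale was computed from that statistic. Why the statistic and the p do not match is not known, so this error is not taken as the precision of Nrp1. The difference between Nrp1 and Nrp2 was not tested.

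**Figure D2:**
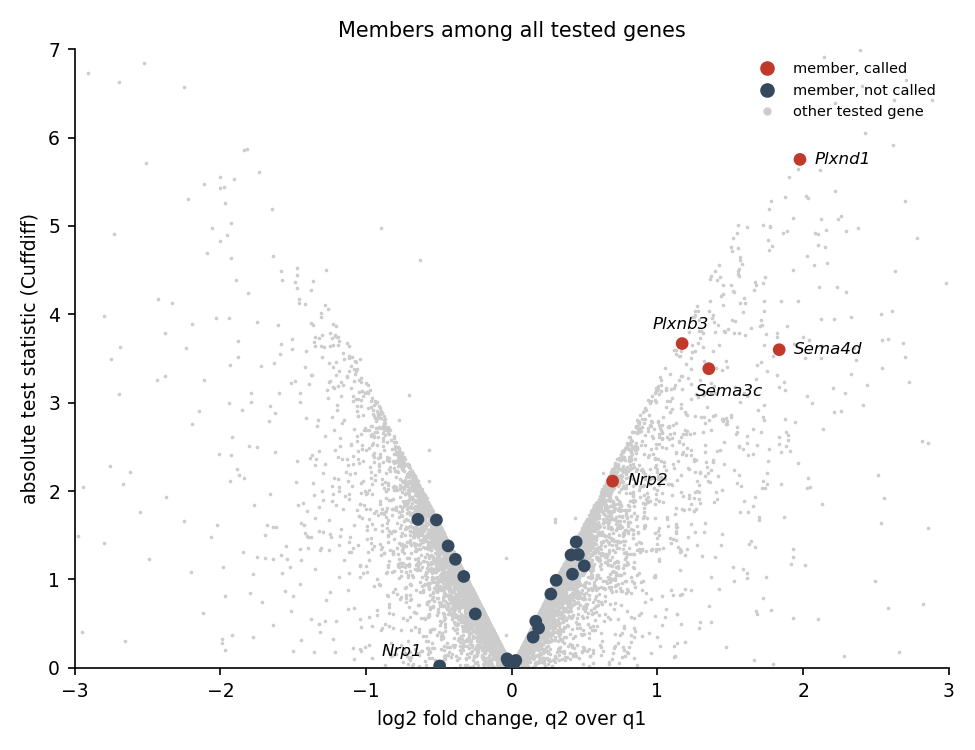
Log2 fold change, q2 over q1, on the x axis and absolute Cuffdiff statistic on the y axis for tested genes with a single symbol by the authors' deposited table; red points are called members, dark points members not called and grey points other genes, with 66 of 12090 genes outside the axes. Plxnd1 stands highest of the members at 5.75, and Nrp1 lies at the bottom, at 0.02.

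Plxnd1 had the largest fold change and statistic of the tested members. It encodes the receptor of Sema3e and, with neuropilins, of Sema3c, best known from vessel patterning (chromosome 6, 115954811 to 115995005, minus strand). By the authors' deposited table it was 3.94-fold higher in q2, with a log2 fold change of 1.98, a statistic of 5.75, an implied error of 0.34 and a Cuffdiff q of 0.00162. From the highest, Plxnd1 was at rank 115 of 12090 tested single-symbol genes by log2 fold change and at rank 26 by statistic. Plxnc1, the receptor of Sema7a, was at -0.33 (q = 0.446) by the authors' deposited table.

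The B plexins, which couple to RhoA through exchange factors bound at their C terminus, were unlike each other. Plxnb3, a receptor of Sema5a that is known in oligodendrocytes (chromosome X, 73757103 to 73772510, plus strand), was 2.25-fold higher in q2 by the authors' deposited table, with a log2 fold change of 1.17, a statistic of 3.67, an implied error of 0.32 and a Cuffdiff q of 0.00162. Plxnb2, a receptor of Sema4c that progenitors of the developing brain express, was at 0.31 (q = 0.477) by the authors' deposited table. Plxnb1, the main receptor of Sema4d, was at -0.52 (Cuffdiff q = 0.141) by the authors' deposited table. The A plexins, the signalling partners of neuropilins for class 3 and direct receptors for class 6 ligands, had no call by Cuffdiff and an unadjusted p under 0.05 in 1 of 4, Plxna1. By the authors' deposited table Plxna1 was at 0.44 (q = 0.246), Plxna2 at 0.27, Plxna3 at -0.02 and Plxna4 at -0.25. Plxna3 lies 0.557 Mb from Plxnb3 on chromosome X.

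The Plxdc genes encode transmembrane proteins with a plexin-like domain that bind the secreted factor PEDF. Plxdc2 had the lowest value of all tested members by the authors' deposited table, -0.64 (Cuffdiff q = 0.142), and was not called. Plxdc1 was not tested and is listed at 0 in q1.

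Set side by side, the ligands and receptors that are known to act together differed in their values. By the authors' deposited table Sema3c at 1.35 stood beside Plxnd1 at 1.98 and Nrp2 at 0.69, all called higher in q2. The Nrp2 call was lost with normal p-values of the statistic. Sema3c can also signal through Nrp1 and A plexins, and none of these was called. By the authors' deposited table Nrp1 was at -0.49 and the A plexins lay between -0.25 (Plxna4) and 0.44 (Plxna1). The statistic and p of Nrp1 do not match, as given above, so its lack of a call says little. Sema4d at 1.84 stood beside its main receptor Plxnb1 at -0.52 by the authors' deposited table. Plxnb3 at 1.17 stood beside its ligand Sema5a at -0.39, and Plxnb2 at 0.31 beside Sema4c at 0.46 by the authors' deposited table. Sema7a and Plxnc1 were at 0.15 and -0.33 by the authors' deposited table, both without a Cuffdiff call. These pairs come from background knowledge, and no test of a pair was made.

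RefSeq promoter windows on GRCm38.p6, from 250 bases before to 50 after a start site, were found for 26 of the 33 members. The windows of the called members are shown because they differ widely in CG dinucleotides, which are in capitals. Sema3c has chr5:17574566-17574865 (plus strand), Nrp2 chr1:62703067-62703366 (plus), Plxnd1 chr6:115994956-115995255 (minus), Plxnb3 chrX:73756853-73757152 (plus) and Sema4d chr13:51756634-51756933 (minus). All are read 5′ to 3′ along the gene.
Sema3c: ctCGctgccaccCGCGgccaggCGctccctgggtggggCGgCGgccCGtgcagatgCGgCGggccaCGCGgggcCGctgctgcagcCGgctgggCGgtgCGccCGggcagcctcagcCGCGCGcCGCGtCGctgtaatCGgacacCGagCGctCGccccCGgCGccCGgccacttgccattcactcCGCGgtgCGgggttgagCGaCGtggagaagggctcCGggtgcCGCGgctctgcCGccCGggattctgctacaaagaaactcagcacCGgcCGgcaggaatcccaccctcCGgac
Nrp2: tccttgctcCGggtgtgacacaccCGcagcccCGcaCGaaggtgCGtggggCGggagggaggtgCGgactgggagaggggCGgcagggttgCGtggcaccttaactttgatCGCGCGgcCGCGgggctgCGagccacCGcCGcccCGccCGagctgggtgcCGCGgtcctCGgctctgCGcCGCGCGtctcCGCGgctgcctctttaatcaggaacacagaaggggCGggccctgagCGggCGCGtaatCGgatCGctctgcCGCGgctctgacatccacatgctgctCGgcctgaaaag
Plxnd1: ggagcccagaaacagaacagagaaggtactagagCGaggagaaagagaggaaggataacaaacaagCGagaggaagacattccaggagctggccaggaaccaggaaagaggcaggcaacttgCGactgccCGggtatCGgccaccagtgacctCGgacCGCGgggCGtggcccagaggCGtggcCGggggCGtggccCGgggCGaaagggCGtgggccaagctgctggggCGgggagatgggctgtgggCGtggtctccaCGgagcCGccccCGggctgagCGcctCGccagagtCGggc
Plxnb3: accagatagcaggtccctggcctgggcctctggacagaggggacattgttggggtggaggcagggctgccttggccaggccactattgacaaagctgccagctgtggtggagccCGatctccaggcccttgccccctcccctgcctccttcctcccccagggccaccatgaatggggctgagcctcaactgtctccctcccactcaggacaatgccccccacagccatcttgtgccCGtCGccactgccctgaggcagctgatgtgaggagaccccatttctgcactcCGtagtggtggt
Sema4d: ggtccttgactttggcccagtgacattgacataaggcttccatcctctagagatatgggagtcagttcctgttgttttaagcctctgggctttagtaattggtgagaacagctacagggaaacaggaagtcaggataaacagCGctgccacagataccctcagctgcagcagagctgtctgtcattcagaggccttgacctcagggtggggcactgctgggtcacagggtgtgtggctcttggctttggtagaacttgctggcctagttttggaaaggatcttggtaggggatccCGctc

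Sema3c, Nrp2 and Plxnd1 have 42, 37 and 23 CG dinucleotides in these windows, against 4 in Plxnb3 and 2 in Sema4d. The median was 15 over 37 windows of members and 7 over 32851 windows of all genes. Called members thus include CG-rich and CG-poor promoters. For Sema4d RefSeq has 3 windows, with 2 or 3 CG dinucleotides each, and even the nearest start site lies 37064 bases inside the edge of the authors' locus, so a start used further upstream is not shown. The forkhead core GTAAACA, searched on both strands, was in 0 of the 26 members' promoters and in 4.05% of all genes' promoters. The related TGTTTAT, also on both strands, was in 1 of 26 and in 5.28% of all genes. The match was in the Sema4d window printed above, from base 135 of the window, as the reverse complement. These counts describe the letters in the windows only.

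Fold changes in this table varied with GC content, and the members span much of its range. The median log2 fold change of tested genes was -0.38 in the lowest and 0.33 in the highest of 50 bins of transcript GC. Transcripts of Sema3a, Sema3d and Sema3c have a GC content of 40.8%, 40.7% and 42.7%, where tested genes lay low in q2. With the trend subtracted they moved up, to 0.69, 0.78 and 1.62. Sema4d, Plxnd1 and Plxnb3, at 58.9%, 55.0% and 56.0% GC, moved down to 1.55, 1.84 and 0.96. With p read from the authors' p at a like statistic and adjusted by Benjamini-Hochberg to a q, all 5 kept their call, and Sema3a (q = 0.0378) was called higher and Plxnb1, at -0.80 (q = 0.00831), lower. With normal p-values instead, Plxnd1 (q = 1.77e-05) and Sema3c (q = 0.0038) kept theirs, while Sema4d (q = 0.0722), Plxnb3 (q = 0.077) and Nrp2 (q = 0.357) did not. Sema4g, Sema6c and Sema7a went from above 0 to -0.16, -0.14 and -0.19.

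**Figure D3:**
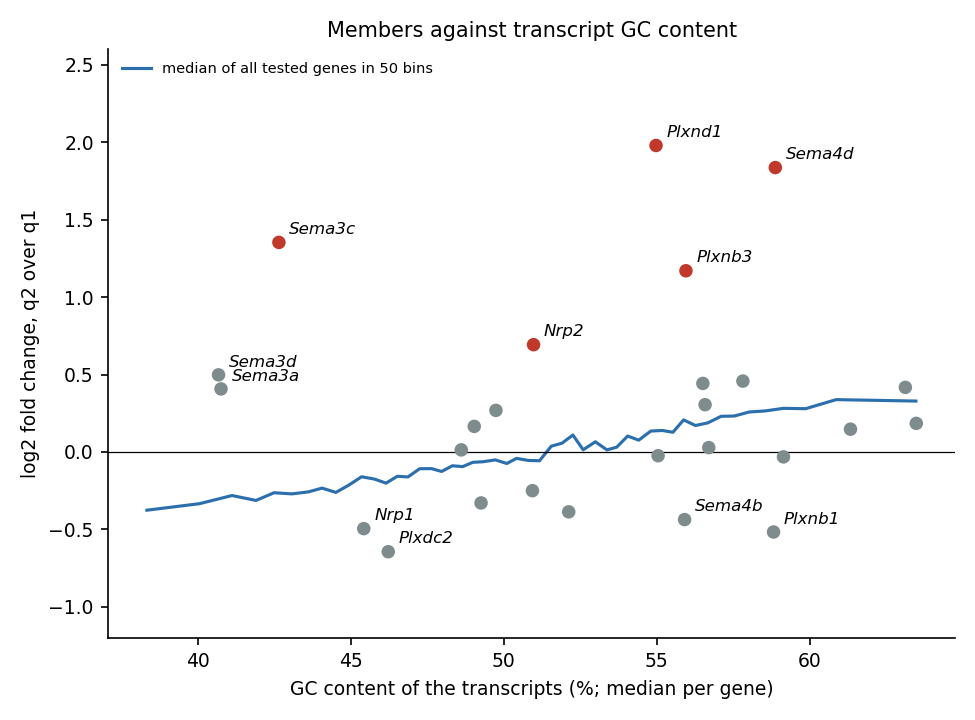
Log2 fold change, q2 over q1, from the authors' deposited table (y axis) against the median GC content of a gene's transcripts in percent (x axis) for the 26 tested members. Red points are called members, grey points the others, and the blue line is the median of all tested genes in 50 bins; Sema3a, Sema3c and Sema3d sit above it in its low part, and Plxnb1 below it in its high part.

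The nearest tested genes along the chromosome were examined for each called member, 4 on either side. Of these 40 neighbours 1 was called (2.5%), beside 7.63% of all tested entries, and it was higher. This was Cd36, a fatty acid transporter and scavenger receptor, 51.4 kb from Sema3c, at 1.85 (Cuffdiff q = 0.00162) by the authors' deposited table. On the other side of Sema3c, Cacna2d1 lay 1200 kb away and was at 0.51 without a call by the authors' deposited table. Both flanking genes of Plxnd1, Ift122 at 0.08 and Tmcc1 at -0.07, were close to 0 by the authors' deposited table. Beside Plxnb3, Srpk3 at 1.04 (q = 0.304) was positive but not called by the authors' deposited table. Sema4d lay between Secisbp2 at 0.34 and Gadd45g at -0.22, and Nrp2 between Pard3b at -0.31 and Ino80d at 0.07 by the authors' deposited table. In sign, 26 of the 40 neighbours were above 0, beside 46.4% of all tested single-symbol genes, and their median was 0.08. The number above 0 ran from 2 of 8 beside Nrp2 to 7 of 8 beside Plxnb3 and Sema3c. Sema3a and Sema3d, members themselves, were among the neighbours of Sema3c.

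**Figure D4:**
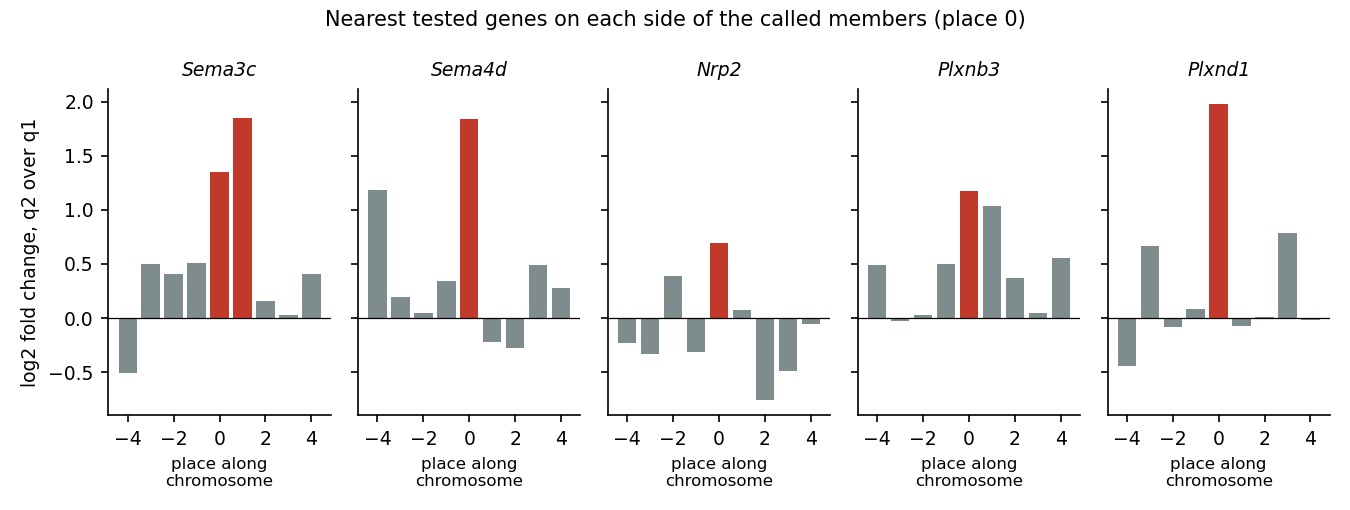
Log2 fold change, q2 over q1, from the authors' deposited table (y axis) for each called member, at place 0, and the 4 nearest tested genes on each side by their order along the chromosome (x axis). Red bars are called genes; the neighbour at place 1 of Sema3c is Cd36 at 1.85, and no other neighbour was called.

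Genes that act with the family were counted from lists chosen by their known roles, with earlier results of these data known. Each count stands beside 7.63% of all tested entries called, 4.24% higher and 3.39% lower, and 19.2% with an unadjusted p under 0.05. Of 18 small GTPases and their regulators that work below plexins, Cuffdiff called 0, and 2 had an unadjusted p under 0.05, with a median of -0.15. RhoA, encoded by Rhoa, was at -0.53 (q = 0.142), and Tiam1, an exchange factor for Rac, at 0.64 (q = 0.095) by the authors' deposited table. In the arm that acts on actin and microtubules 2 of 18 tested genes were called higher and 1 lower, with a median of -0.02. The higher ones were Mical1 and Mical2, oxidoreductases that take actin filaments apart, at 1.37 and 1.38 by the authors' deposited table (Cuffdiff q = 0.00162 for both). Mical3 was at 0.57 (q = 0.294) by the authors' deposited table. The lower one was Dpysl3, a collapsin response mediator protein, at -0.67 (Cuffdiff q = 0.0332), while its relative Dpysl2 was at 0.00 and Crmp1 at -0.33 by the authors' deposited table.

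Of 10 tested genes listed as membrane partners of plexins and neuropilins, 2 were called higher and 1 lower, beside 4.24% and 3.39% of all tested entries. Cd93, a transmembrane receptor best known from endothelial cells, was at 2.10, Ptk7, a pseudokinase that can bind A plexins, at 0.66 and the integrin gene Itgav at -1.82 by the authors' deposited table (Cuffdiff q = 0.00162, 0.0383 and 0.00162). That Cd93 binds a plexin or neuropilin is not established here. Of 7 other ligands of neuropilins and Plxdc proteins 2 were called higher, Serpinf1, which encodes PEDF, at 1.69 and the basement membrane gene Nid1 at 1.47 by the authors' deposited table (Cuffdiff q = 0.00719 and 0.00162). Vegfa, Vegfb and Vegfc, which bind neuropilins or their partner receptors, lay between -0.11 and 0.04 by the authors' deposited table. None of 8 proteases that cut semaphorins had a Cuffdiff call, beside 7.63% of all tested entries. For 2 of the 8 the unadjusted p was under 0.05, beside 19.2% of all tested entries, and the median of the 8 was 0.15.

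Markers of other cell types that use these genes were listed beside them. Over all tested entries 4.24% were called higher and 3.39% lower. Of 10 endothelial markers only Kdr was tested, at 0.71 (q = 0.297). Of the 9 untested ones 6 had a finite log2 fold change above 0 and none was below 0. Another 2 (Cdh5 and Esam) were listed at 0 in q1, and Cldn5 had a log2 fold change of 0. Of 3149 untested single-symbol genes with a finite fold change other than 0, 1768 were above 0. Untested values carry no p. Of 10 microglia and macrophage markers 2 were tested and Cuffdiff called 0, as an unadjusted p under 0.05 was found for 0 of them. Of the 8 untested ones 1 had a finite log2 fold change above 0, 3 were below 0 and 4 were at 0. In the oligodendrocyte lineage list 2 of 9 tested markers were called higher, Mbp at 1.75 and Myrf at 1.20, by the authors' deposited table. In the same list 3 were called lower, among them Pdgfra at -2.83 and Gpr17 at -1.42 by the authors' deposited table. The 3 untested ones had 1 value above 0 and 2 below 0. Of 6 tested neuron markers Syt1 was called higher at 1.48 and Elavl3 lower at -1.26 by the authors' deposited table. The 4 untested ones had 1 value above 0, 2 below 0 and 1 at 0. Of 10 fibroblast and mesenchymal markers 5 were tested and 4 called higher, namely Fn1, Col5a1, Fbn1 and Acta2 at 1.78, 1.77, 1.39 and 0.95 by the authors' deposited table. Of the 5 untested ones Col3a1 and Pdgfrb had a finite log2 fold change above 0, Col1a2 was listed at 0 in q2, and Dcn and Lum had a log2 fold change of 0. Levels per condition were not used, so no summed level of these lists is given, and their part in the members' values was not tested.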

How the data were processed

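The series held 4 poly(A) RNA libraries, grouped by their titles. Reads were processed with TopHat2 2.0.9, Cufflinks 2.2.1 and Cuffdiff on build mm10 (GRCm38), per the submitters' processing notes. The gene annotation, read filters and strand setting were not given in the sources used here. The authors deposited log2 fold changes of q2 over q1 for 26815 entries. Their test statistic is a deposited score for the same contrast. Cuffdiff's p-values and q-values are as deposited, and 15315 of 15315 q-values matched a Benjamini-Hochberg adjustment within a relative tolerance of 0.001. The smallest p, 5e-05, is shared by 472 entries. With no counts, depth and precision per library could not be given. The columns of values per condition, 2 in number, match no group and were not used.

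The authors' calls were taken over the whole table. The implied error is the log2 fold change divided by the statistic; what spread it measures is not established. Transcript GC and length came from GENCODE M21 by symbol, for all 33 members and 95.6% of tested single-symbol genes. Medians in 50 bins were subtracted, and p was taken from a normal distribution or, an alternative added after seeing the data, from the authors' p at a like statistic (running median over 101 entries). The procedure was tested on simulated data with normal noise of the implied errors. Such noise cannot show whether normal p-values suit the deposited values. Locus starts were converted to count from 1. Members and lists were chosen with earlier results of these data known. Named genes were all members, the called members of each list and Foxp1. Neighbouring genes, Mical3, Dpysl2, Crmp1, Rhoa, Tiam1, Kdr and the VEGF genes were added after their values were seen. Some genes that this rule takes are left out of the text. The design had planned a comparison of protein sequences, which was not made. Alternatives were other q thresholds, a minimum fold change, adjustment over single-symbol genes, normal p-values, centring, GC and length trends and members with a locus of their own. Computations used pandas 2.3.3, numpy 2.4.6 and scipy 1.17.1 under Python 3.11.15, and figures matplotlib 3.10.9.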

Additional observations from a re-analysis of the deposited data

How the results depend on the processing

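Across the 13 alternatives run on the calls, Plxnd1 and Sema3c stayed called and higher in q2 in each, with log2 fold changes of 1.84 to 2.03 and 1.35 to 1.62. Sema4d and Plxnb3 lost their call in 1, GC trend removal with a normal p. Nrp2 lost its call in 6 of 12: a q under 0.01, a log2 fold change of at least 1, and each normal p (of the statistic as deposited, centred, GC or length trend removed); it is not in the set of members with a locus of their own. With the GC trend removed and a normal p, 2 members were called, 2 of them higher, in place of 5 and 5. With the same trend removed and p read from the statistic, 1 was called lower in place of 0, Plxnb1. The members' median log2 fold change went from 0.17 to 0.30 with untested members of finite fold change added, and lay between 0.10 and 0.24 with centring, GC or length trend removed or loci of their own. The share of members' promoters with the forkhead letters was 0% for GTAAACA and 3.85% for TGTTTAT. Foxp1 stayed called lower in all 13. Over the whole table a normal p of the statistic gave 425 calls of 15197 entries (2.80%), or 438 (2.88%) centred, in place of 1168 of 15315 (7.63%). Over the 11562 entries used to remove a trend it gave 371 (3.21%) without the length trend and 318 (2.75%) without the GC trend. A q under 0.01 gave 667 and a minimum log2 fold change of 1 gave 687. No paired analysis was possible because no value per library was used, and for the same reason no library could be left out.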
